A study of Mus musculus with 6 samples.

Results

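Transcripts of 9 genes of cell coupling were followed in the adult mouse optic nerve. They are the connexin genes Gja1, Gjb6, Gjb2, Gjb1, Gjc3, Gjc1, Gja4 and Gja5 and the pannexin gene Panx1. They were taken by symbol, and all 9 were among the 24062 genes of the count tables. No threshold on a measured value picked them, but they were chosen with earlier results of these data known. The study asked how the nerve's RNA differs 1 month after Nf1, which encodes a brake on Ras signalling, is targeted in mature oligodendrocytes. The 3 mutant libraries carry PlpCreERT2 and Nf1flox/flox. Among the controls, library 1 is Nf1flox/flox, whereas libraries 2 and 3 are Nf1flox/+, and no Cre is named for any of them. All animals were over 2 months old and, per the treatment protocol, had tamoxifen, so the agent is shared by both groups while the Cre is not. The Plp promoter drives this Cre, so recombination is directed to cells that use that promoter and not to astrocytes, meninges or vessels as such. The labels do not tie a library to 1 animal, and every p-value therefore reflects only how much these libraries vary. Controls 1, 2 and 3 differ from each other in genotype or in the Xist counts given below, so they do not share 1 source. Their spread could still be technical in part, and that of the mutants in whole.

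Connexins assemble into hexameric channels, and a pair of channels in apposed membranes forms a gap junction through which ions, metabolites and second messengers pass. In white matter, astrocytes are joined to each other and to oligodendrocytes in a network that takes up potassium released by active axons and spreads glucose and lactate. Meningeal cells and vessels have connexins of their own. Pannexins are structurally similar but form single-membrane channels that release ATP.

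The upstream sequences of 3 members, Gjb6, Gjb2 and Gja1, are shown as a description, and no test compared these genes with each other. Gjb6 and Gjb2 lie next to each other on chromosome 14, on the same strand and 18598 bases apart. They had the most similar profiles of any pair of members (Pearson's r 0.976 over 6 libraries). Gjb2 was nearly as like Gjc3, on chromosome 5 (0.946). Genes outside the members were more like each, such as Emp3 for Gjb2 (0.9996) and Cd97 for Gjb6 (0.9984). Whether their position plays a part was not tested. The other astrocyte connexin gene, Gja1, was less like Gjb6 (0.791) and Gjb2 (0.79). The sequences are from RefSeq on GRCm38.p6 (8 of the 9 members had an entry), run 5′ to 3′ on the gene's strand and end at the base before the annotated start, which is also the start in the annotation used for counting. The windows are chr14:57133612-57133861 (minus strand) for Gjb6, chr14:57104703-57104952 (minus) for Gjb2 and chr10:56377050-56377299 (plus) for Gja1.
Gjb6: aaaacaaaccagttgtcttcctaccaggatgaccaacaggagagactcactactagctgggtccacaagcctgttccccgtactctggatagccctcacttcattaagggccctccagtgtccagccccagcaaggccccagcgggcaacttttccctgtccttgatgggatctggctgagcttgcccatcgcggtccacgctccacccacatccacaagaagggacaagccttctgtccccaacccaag
Gjb2: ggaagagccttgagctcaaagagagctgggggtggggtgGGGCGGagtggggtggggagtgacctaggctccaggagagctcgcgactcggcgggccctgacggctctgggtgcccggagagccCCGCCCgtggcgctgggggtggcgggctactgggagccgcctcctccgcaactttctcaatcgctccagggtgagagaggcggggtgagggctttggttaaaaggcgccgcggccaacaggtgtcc
Gja1: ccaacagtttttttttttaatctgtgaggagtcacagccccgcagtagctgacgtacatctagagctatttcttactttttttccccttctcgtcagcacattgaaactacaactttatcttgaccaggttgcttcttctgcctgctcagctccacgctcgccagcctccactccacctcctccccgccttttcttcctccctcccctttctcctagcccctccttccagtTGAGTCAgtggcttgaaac
Capitals mark matches on either strand to the GC box GGGCGG, the AP-1 motif TGANTCA or the TATA motif TATAAA, none of which overlap in these windows. Gjb2 has 2 GC box matches, which begin 211 and 126 bases before the start, and 69.2% of its window is G or C. Gja1 has 1 AP-1 match, beginning 19 bases before the start, in a window with 50% G or C, and Gjb6 has no match and 56.8%. Of 32851 promoter windows of 250 bases, 32.7% hold the GC box, 6.75% the AP-1 motif and 12.4% the TATA motif. A match is a description of letters and not a shown binding site.

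The libraries held 13555756 to 19012262 counts in mutants and 21307855 to 23662698 in controls. Nf1 had 304, 226 and 433 CPM in mutant libraries 1, 2 and 3, against 394, 400 and 337 CPM in control libraries 1, 2 and 3. CPM, counts scaled to library size, uses edgeR's TMM factors. Because reads were summed over all exons, the floxed part is not seen separately and these values do not check the labels. Markers of astrocytes and oligodendrocytes, the cells a nerve should hold, were abundant, and no marker of the 11 cell type lists was at 0 in all 6 libraries. Marker sums moved widely between libraries, however, and 3 features bear on the results. The mature oligodendrocyte list (16 genes) summed to 6671, 39110 and 5535 CPM in mutants 1, 2 and 3, against 30370 to 31910 CPM in controls, so mutant library 2 stands apart from the other mutants. The meningeal fibroblast list (13 genes) summed to 441, 2336 and 555 CPM in mutants 1, 2 and 3, against 2907 to 3796 CPM in controls. The neuron list (12 genes) summed to 8209, 2513 and 6137 CPM in mutants 1, 2 and 3, against 953 to 1673 CPM in controls. The list of striatal projection neuron genes (10 genes) summed to 1435 to 2295 CPM in mutants, against 115 to 173 CPM in controls. The optic nerve is known to hold axons of retinal neurons and normally no neuronal cell bodies. These markers moved with the genotype in all 6 libraries, so a difference in the tissue collected and an effect of the genotype cannot be told apart in any comparison of mutants with controls given here. Xist, a sex marker, had 30602 to 51760 counts in the mutants and 58, 72727 and 34 counts in control libraries 1, 2 and 3. Sex was thus partly confounded with genotype, since only control 2 had many Xist counts as the mutants did. This bears on every member, and Gjb1 and Gja6 also lie on chromosome X. Microglial markers summed to 403.5, 756 and 295 CPM in mutants 1, 2 and 3, against 581 to 746 CPM in controls. The groups overlapped only through mutant library 2, and all 9 list genes had negative log2 fold changes (median -0.39). In bulk RNA, fewer cells of a type and less RNA per cell cannot be told apart.

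None of the 9 members passed the edgeR quasi-likelihood test at a Benjamini-Hochberg adjusted p under 0.05 over 16315 genes tested, where 3.29% of all genes passed (482 higher and 55 lower). All 9 passed the filter on low counts. At an unadjusted p under 0.05 there were 4 members, Gjb6, Gjb2 and Gja4 lower and Panx1 higher, beside 19.2% of all genes. The same 4 were the members whose groups did not overlap, which held for 24.0% of all genes in either direction and for 11.5% with every mutant library below every control. The median log2 fold change of the 9 was -0.87, with 7 negative and 2 positive values, and that of all tested genes was -0.002. DESeq2, the tool the series names, called these 4 members, with 9.17% of genes called.

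**Figure D1:**
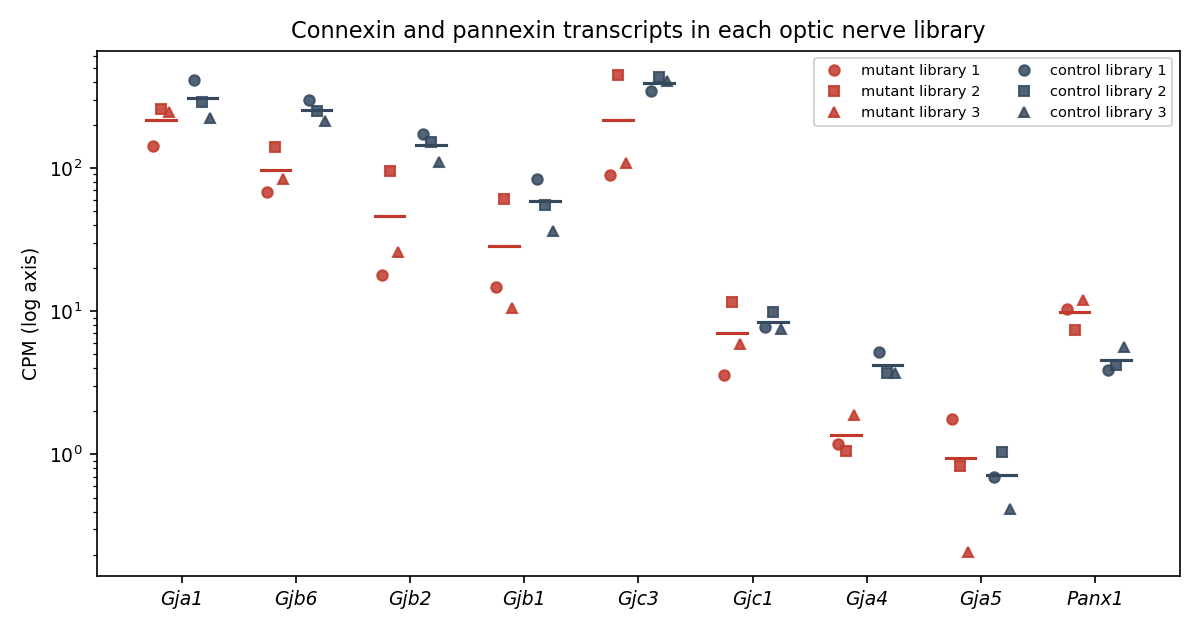
CPM of each member (log axis) in the 3 mutant libraries (left of each pair) and the 3 control libraries, with bars at the group means. Gjb6, Gjb2 and Gja4 were lower in every mutant library than in any control, Panx1 was higher, and mutant library 2 lay near the controls for Gjb1 and Gjc3.

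Levels of different genes were compared per length, as RPKM (CPM per kilobase of exon). In controls the members fell into an abundant and a scarce set. Gjb6 averaged 114.6 ± 19.2 RPKM, Gjc3 112.1 ± 12.9, Gja1 98.6 ± 30.5, Gjb2 60.2 ± 13.2 and Gjb1 39.1 ± 15.9 (SD, n = 3). Each of these overlapped its neighbour in that order, so the order within the abundant set is not resolved. Gjc1 at 2.88, Gja4 at 2.49 and Panx1 at 2.21 RPKM also overlapped each neighbour, and Gja5 lay below them at 0.225 RPKM. In mutants the order ran Gja1 (69.4 ± 20.2 RPKM), Gjc3 (61.3 ± 57.3), Gjb6 (44.2 ± 17.4), Gjb2 (19.2 ± 17.5) and Gjb1 (19.2 ± 18.6), again each overlapping the next. Panx1, at 4.77 ± 1.11 RPKM, took the place that Gjc1 held in controls, and its range overlapped that of Gjc1 (2.41 ± 1.42 RPKM) in the mutants.

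The make-up of the connexin transcripts also separated the groups for Gjb2, Gjb6 and Gjc1. It did so too for Gjb5, which had 0 counts over the mutants and 31 over the controls. By CPM, a different measure, 24.0% of all tested genes did not overlap between groups. The 20 connexin genes of the tables summed to 130.1, 377.7 and 177.9 RPKM in mutants 1, 2 and 3, against 508.2, 450.6 and 370.5 RPKM in controls 1, 2 and 3. Gjb2 held 5.73%, 10.4% and 6.05% of that sum in the mutants, against 14.2%, 13.9% and 12.4% in the controls. Gjb6 held 23.8%, 16.9% and 21.2% in the mutants, against 26.5%, 25.1% and 26.0% in the controls. The Gjb2 and Gjb6 shares were lower in every mutant library, while that of Gja1 was 35.5%, 22.0% and 44.2% in the mutants, against 25.9%, 20.6% and 19.3% in the controls, and overlapped. The share of Gjc1, a scarce member, was higher in every mutant library, at 0.942%, 1.05% and 1.13% in the mutants, against 0.523%, 0.754% and 0.697% in the controls. These are shares of 1 sum, so they are not independent of each other.

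**Figure D2:**
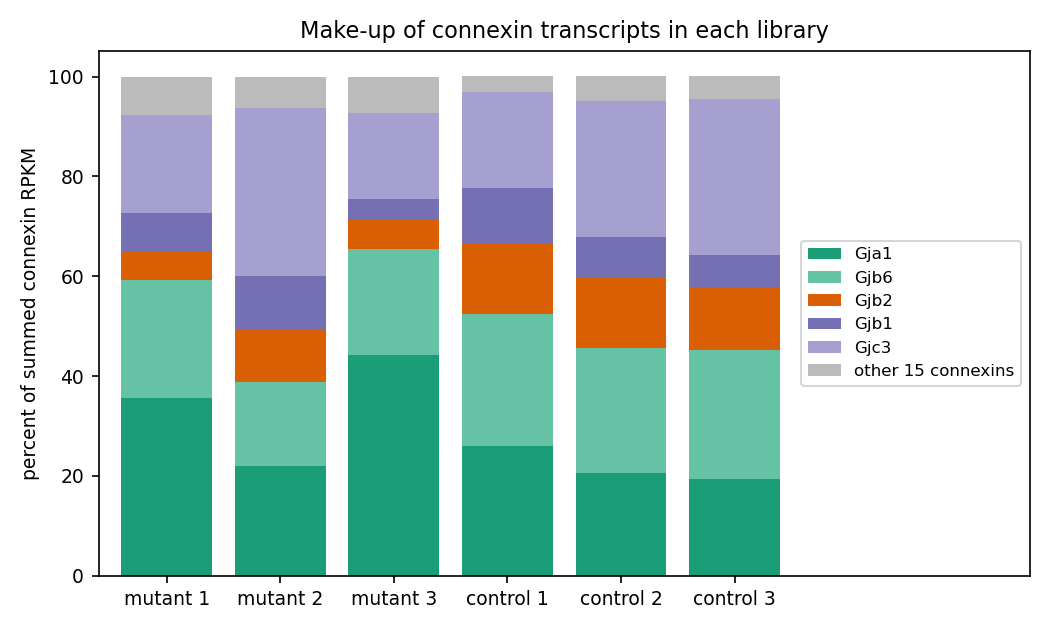
Percent of summed connexin RPKM held by the 5 abundant connexin genes and by the other 15, for 3 mutant and 3 control libraries. The Gjb2 share was 5.73% to 10.4% in mutants and 12.4% to 14.2% in controls.

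Of the astrocyte connexins, Gjb6 stood nearest to the threshold and Gja1 did not differ beyond the spread between libraries. Gjb6 (chromosome 14, 57123301 to 57133611 on mm10, the build of all coordinates here, minus strand, 3 exons) encodes Cx30, a gap junction protein of mature astrocytes. It had 68.2, 140.4 and 83.1 CPM in mutants 1, 2 and 3, against 296, 249 and 212 CPM in controls 1, 2 and 3. Every mutant library was below every control, mutant library 2 included. By edgeR it was 2.59-fold lower in the mutants (log2 fold change -1.37, SE 0.31, adjusted p 0.0501). That value is at the edge of the call, and scaling and filter choices put it on either side (0.0237 to 0.0511 over the scalings, filters and robust dispersion tried). Without mutant library 2 it was -1.73 (adjusted p 0.00033), and without any other 1 library the adjusted p was 0.127 to 0.228.

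Gja1 (chromosome 10, 56377300 to 56390419, plus strand, 2 exons) encodes Cx43, the principal connexin of astrocytes, also made by meningeal and vascular cells. It had 143, 259 and 244 CPM in mutants 1, 2 and 3, against 409, 288 and 222 CPM in controls 1, 2 and 3. The groups overlapped, since mutants 2 and 3 lay above control 3. The edgeR estimate was -0.51 on the log2 scale (SE 0.32, adjusted p 0.426), and -0.23 without control library 1, the highest of the 6 libraries.

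The astrocyte marker list (12 genes, no connexin among them) summed to 9320, 10670 and 7936 CPM in mutants 1, 2 and 3, against 8520, 8091 and 9460 CPM in controls, and the groups overlapped. Set against it, Gjb6 gave 7.31, 13.2 and 10.5 CPM per 1000 CPM of astrocyte markers in the mutants, against 34.7, 30.7 and 22.4 in the controls. The log2 difference was -1.52, with a two-sided exact permutation p of 0.1, the smallest that 3 against 3 libraries allow. Adjusted over the 15 ratios computed, each exact p of 0.1 became 0.25. Gja1 gave 15.4, 24.2 and 30.8 in the mutants, against 48.0, 35.6 and 23.5 in the controls, with overlap (exact p 0.3). The list is led by Slc1a2, a glutamate transporter gene that was at 3990 CPM in mutants and 1922 CPM in controls. Without it, a choice made after seeing the data, the difference for Gjb6 was -1.03, the groups still did not overlap, and that for Gja1 was -0.11. The list without Slc1a2 summed to 3953 to 7455 CPM in mutants and 6143 to 7647 CPM in controls. Of the 12 list genes 7 had negative and 5 positive log2 fold changes (median -0.25), so the full sum is not a steady measure of astrocytes. The lower Gjb6 level thus stood beside an astrocyte marker sum that overlapped but reached lower in mutants without Slc1a2. It also stood beside a meningeal marker sum that was lower in all 3 mutants and an oligodendrocyte marker sum that was lower in mutants 1 and 3. The part of these sums in the result was not tested.

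Gjb2 (chromosome 14, 57098602 to 57104702, minus strand, 2 exons) encodes Cx26, a connexin of the leptomeninges that is also reported in some astrocytes. It had 17.9, 94.5 and 25.9 CPM in mutants 1, 2 and 3, against 173, 151 and 111 CPM in controls 1, 2 and 3. All mutants were below all controls, but mutant library 2 was close to control 3 and far from the other mutants. By edgeR it was 3.14-fold lower in the mutants (log2 fold change -1.65, SE 0.56, adjusted p 0.157). Without mutant library 2 the value was -2.72 (adjusted p 9.38e-05), and for mutant library 2 alone against the controls it was -0.61 (adjusted p 0.433).

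Gjb2 kept a nearly fixed proportion to fibroblast markers in all 6 libraries. It gave 40.7, 40.5 and 46.6 CPM per 1000 CPM of the meningeal fibroblast list in mutants 1, 2 and 3, against 45.6, 39.7 and 38.0 in controls 1, 2 and 3. The groups overlapped and the log2 difference was 0.05 (exact permutation p 0.5), although the list itself was at 0.126, 0.668 and 0.159 of the control mean in the 3 mutants. All 13 list genes were lower in every mutant library than in any control. Without Igf2, the most abundant gene of that list, the ratio was 59.6 to 72.9 in mutants and 59.2 to 80.1 in controls. Against the astrocyte list, Gjb2 gave 1.92, 8.86 and 3.26 in mutants, against 20.3, 18.6 and 11.7 in controls, a log2 difference of -2.10 (exact p 0.1). Gjb6 did not hold a fixed proportion to the fibroblast list, at 155, 60.1 and 150 per 1000 in mutants 1, 2 and 3, against 77.9, 65.5 and 72.7 in controls.

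**Figure D3:**
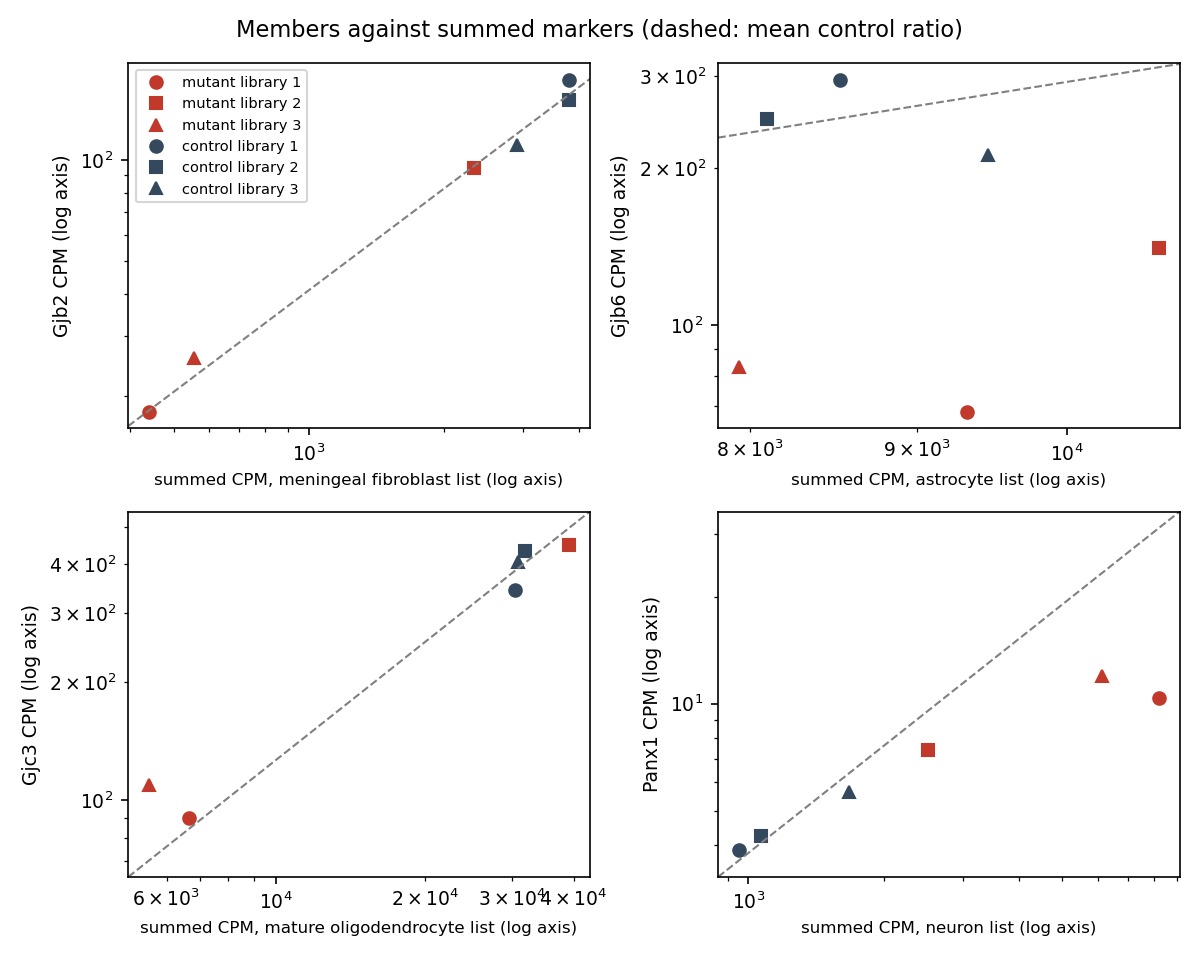
Member CPM against the summed CPM of a cell type list, both on log axes, in 3 mutant and 3 control libraries, with the mean control ratio as a dashed line. Gjb2 lay near the line for meningeal fibroblast markers in all 6 libraries, Gjc3 in mutant library 3 lay above that for mature oligodendrocyte markers (19.7 per 1000, against a control mean of 12.7), and all 3 mutant libraries lay below the line for Gjb6 against astrocyte markers and for Panx1 against neuron markers.

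The oligodendrocyte members split the mutant group as the myelin markers did. Gjb1 (chromosome X, 101377337 to 101385624, plus strand, 2 exons) encodes Cx32, the gap junction protein of oligodendrocytes and of Schwann cells. It had 14.8, 60.7 and 10.5 CPM in mutants 1, 2 and 3, against 83.5, 55.5 and 36.3 CPM in controls 1, 2 and 3. Mutant library 2 lay within the control range and the other mutants below it. On the log2 scale edgeR put the difference at -1.03 (SE 0.62, adjusted p 0.403), at -2.20 without mutant library 2 (adjusted p 0.0013), and at 0.057 for mutant library 2 alone. With an Xist term in the model it was -0.97 (adjusted p 0.855), and the control with many Xist counts, control 2, lay between the other controls.

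Gjc3 (chromosome 5, 137953809 to 137962959, minus strand, 3 exons) encodes Cx29 in the mouse, a protein of the inner myelin membrane facing the axon that is not known for forming ordinary gap junctions. It had 89.7, 448 and 109 CPM in mutants 1, 2 and 3, against 344, 432 and 406 CPM in controls 1, 2 and 3. Mutant library 2 was the highest of all 6 and mutants 1 and 3 the lowest. By edgeR the log2 difference was -0.87 (SE 0.56, adjusted p 0.432), -1.98 without mutant library 2 (adjusted p 0.000116) and 0.19 for mutant library 2 alone. The mean of the 3 mutants, 216 ± 202 CPM, describes none of them.

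Per 1000 CPM of mature oligodendrocyte markers, Gjb1 gave 2.22, 1.55 and 1.89 in mutants 1, 2 and 3, against 2.75, 1.74 and 1.17 in controls (exact p 0.9). Gjc3 gave 13.4, 11.5 and 19.7 in mutants, against 11.3, 13.5 and 13.1 in controls (exact p 0.5). Both ratios overlapped between groups, while the marker sum itself varied about as widely as the genes over all 6 libraries. Among the controls alone the marker sum was 30370 to 31910 CPM while Gjb1 ran from 36.3 to 83.5 CPM, so its control ratios were widely spread. The oligodendrocyte precursor list summed to 949 to 1181 CPM in mutants and 1097 to 1222 CPM in controls. That sum was led by Ptprz1, a phosphatase gene, at 680 CPM in mutants and 519 CPM in controls, while 7 of its 9 genes had negative log2 fold changes (median -0.68), so it is not a steady measure of precursors. Against it, Gjc3 gave 94.5, 417 and 92.2 in mutants, against 309 to 370 in controls, and this ratio split the mutants as the mature list did.

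**Figure D4:**
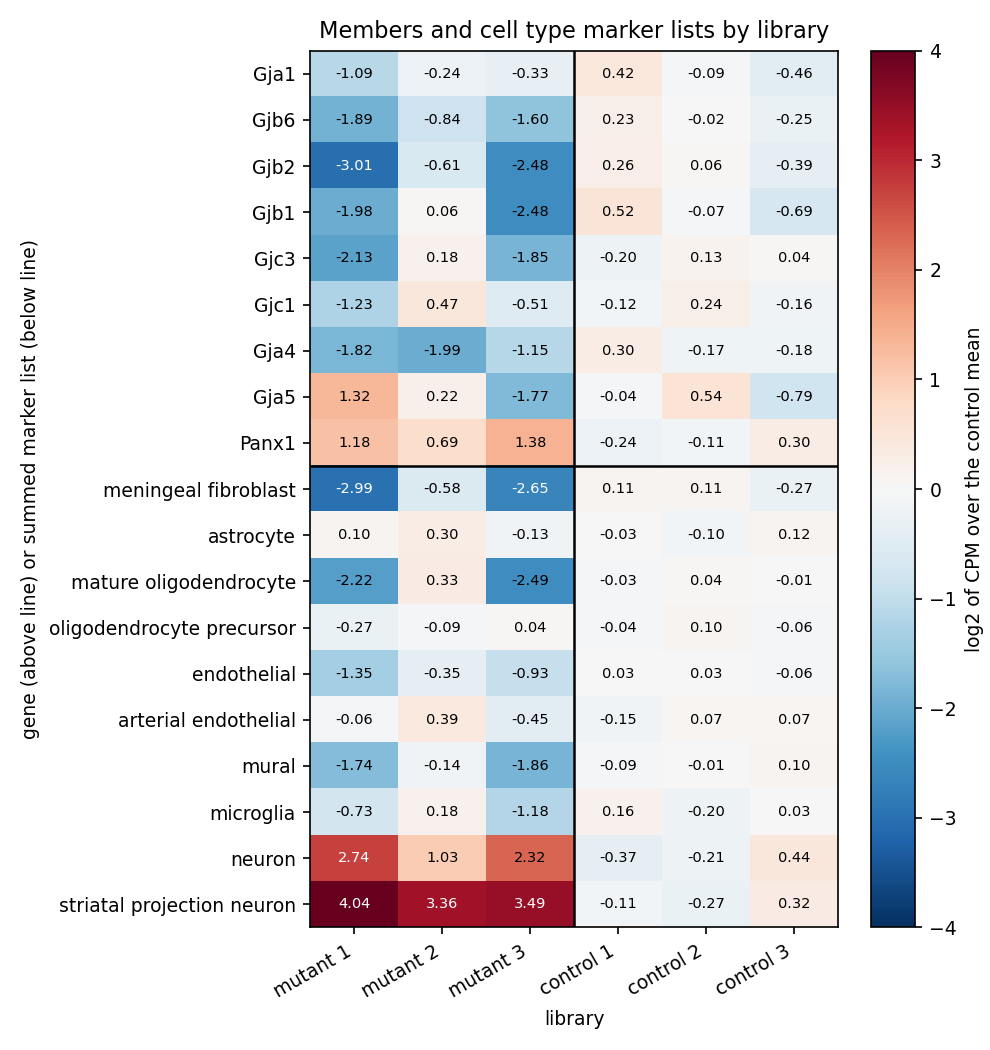
Log2 of CPM over the control mean for each member (above the line) and for summed marker lists (below it), in 3 mutant and 3 control libraries. In mutants 1 and 3 Gjb2 and the meningeal fibroblast list, and Gjb1, Gjc3 and the mature oligodendrocyte list, were low together, and in mutant library 2 the oligodendrocyte members were near the control mean.

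The vascular members were scarce and did not move as a group. Gja4 (chromosome 4, 127311420 to 127314039, minus strand, 2 exons) encodes Cx37, a connexin of arterial endothelium. It had 1.19, 1.06 and 1.88 CPM in mutants 1, 2 and 3 (22, 14 and 27 counts), against 5.15, 3.73 and 3.69 CPM in controls 1, 2 and 3 (104, 90 and 89 counts). All mutants were below all controls, and mutant library 2, which resembled controls for the oligodendrocyte members, was the lowest. By edgeR it was 3.04-fold lower in the mutants (log2 fold change -1.60, SE 0.47, adjusted p 0.107), and the log2 value was -1.98 for mutant library 2 alone against the controls (adjusted p 0.196). The general endothelial list was also lower, at 173, 346 and 231 CPM in mutants 1, 2 and 3, against 423 to 451 CPM in controls. The arterial list overlapped, at 171 to 309 CPM in mutants and 211 to 247 CPM in controls. That sum was led by Efnb2, at 116 CPM in mutants and 68.9 CPM in controls. Of its 9 genes 7 had negative and 2 positive log2 fold changes (median -0.60), so it is not a steady measure of arterial endothelium. Per 1000 CPM of arterial markers, Gja4 gave 5.27, 3.43 and 11 in mutants, against 24.4, 15.2 and 14.9 in controls, a log2 difference of -1.60 (exact p 0.1) that was -1.22 without mutant library 2. It gave 6.86, 3.06 and 8.15 per 1000 CPM of endothelial markers in mutants, against 11.4, 8.35 and 8.73 in controls, a log2 difference of -0.76 (exact p 0.1) that was -0.33 without mutant library 2. The part of endothelial content in its lower level was not tested.

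Gja5 (chromosome 3, 97032402 to 97053634, plus strand, 3 exons), which encodes Cx40 of the same endothelium, had 33, 11 and 3 counts in mutants and 14, 25 and 10 in controls. Its groups overlapped, and the edgeR value of 0.41 on the log2 scale (SE 0.82, adjusted p 0.829) was negative without mutant library 1 (-0.46), so no direction is resolved at this depth. Gjc1 (chromosome 11, 102799478 to 102819686, minus strand, 5 exons) encodes Cx45, found in smooth muscle and pericytes. It had 3.56, 11.6 and 5.86 CPM in mutants 1, 2 and 3, against 7.73, 9.87 and 7.51 CPM in controls, with overlap (log2 fold change -0.26, SE 0.45, adjusted p 0.792). Its sign turned without mutant library 1 (0.058) and for mutant library 2 alone (0.47). The mural list was at 154, 466 and 142 CPM in the mutants, against 483 to 550 CPM in controls, so that Gjc1 per 1000 CPM of mural markers was 23.1, 24.8 and 41.3 in mutants, against 16.0, 19.3 and 13.6 in controls (exact p 0.1).

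Panx1 (chromosome 9, 15005785 to 15045478, minus strand, 5 exons), an ATP-permeable channel gene used by neurons and glia, was the 1 member with a higher level in every mutant library. It had 10.4, 7.41 and 11.9 CPM in mutants 1, 2 and 3 (192, 98 and 171 counts), against 3.86, 4.23 and 5.64 CPM in controls 1, 2 and 3 (78, 102 and 136 counts). By edgeR the log2 difference was 1.11 (SE 0.35, adjusted p 0.127), and 1.29 without mutant library 2 (adjusted p 0.0147). The order of the 6 libraries was nearly that of the neuron list: mutant 3, 1 and 2 and then control 3, 2 and 1 for Panx1, with mutants 1 and 3 exchanged for the list. Panx1 gave 1.26, 2.95 and 1.94 per 1000 CPM of neuron markers in mutants, against 4.05, 3.98 and 3.37 in controls, a ratio lower in every mutant library (exact p 0.1). The part of neuronal RNA in its level was not tested.

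Across the 6 libraries, Pearson's r of log2 CPM between members, given as a description of points that share groups and cell make-up, was highest for Gjb2 and Gjb6 (0.976). It was 0.946 for Gjb2 with Gjc3, 0.897 for Gjb1 with Gjc3 and 0.791 for Gja1 with Gjb6, and -0.972 for Gjb6 with Panx1. Among 10252 tested genes with a mean of at least 10 CPM, the 3 genes most like Gjb2 were Emp3 (0.9996), Tenc1 (0.9989) and the growth factor gene Igf2 (0.9987), itself a member of the meningeal fibroblast list. Those most like Gjb6 were Cd97 (0.9984), Gpr182 (0.9966) and Tmem117 (0.9950). Gjb1 was most like Slc3a2 (0.9983), the oligodendrocyte transcription factor gene Olig1 (0.9982) and Pnpla2 (0.9969). Gjc3 was most like Dock8 (0.9991), Micall1 (0.9986) and Synpo2 (0.9977), and Gja1 most like Cnnm3 (0.9920), Vmac (0.9917) and Snx18 (0.9889).

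With mutant library 2 left out, 5 of the 9 members passed, Gjb6, Gjb2, Gjb1 and Gjc3 lower and Panx1 higher, but so did 27.0% of all genes. Leaving out each of the other 5 libraries in turn gave 0 members. The list median was then -1.45 without mutant library 2, against -0.87 with all 6 libraries.

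**Figure D5:**
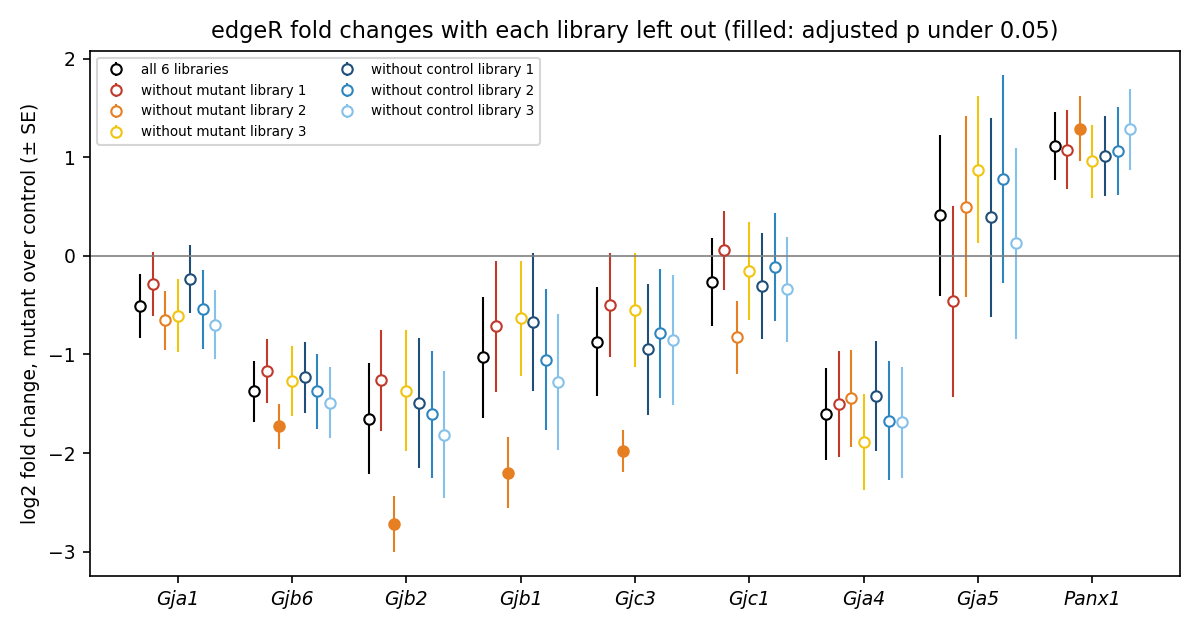
edgeR log2 fold change (mutant over control, ± SE) of each member with all 6 libraries and with each library left out, filled where the adjusted p was under 0.05. The filled points for Gjb6, Gjb2, Gjb1, Gjc3 and Panx1 come from the fit without mutant library 2, and the value for Gja4 stayed between -1.89 and -1.42.

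Of 14 other connexin and pannexin genes 5 were tested and none passed by edgeR. Panx2, a pannexin gene of neural tissue, was at 14.2 ± 4.83 CPM in mutants and 5.05 ± 2.11 CPM in controls without overlap (log2 fold change 1.497, SE 0.41, adjusted p 0.0881). Gjd2, the connexin gene of electrical synapses between neurons, had 4.64, 0.453 and 6.77 CPM in mutants, against 1.34, 1.41 and 1.45 CPM in controls (log2 fold change 1.497, adjusted p 0.338). Gja6, on chromosome X, had 3.18, 0.907 and 7.61 CPM in mutants, against 0.545, 1.203 and 1.58 CPM in controls (log2 fold change 1.80, adjusted p 0.245).

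Of 11 tested scaffold and trafficking partners of connexins 0 passed, with a median log2 fold change of -0.06. The drebrin gene Dbn1 was at 1.31 (SE 0.34, edgeR adjusted p 0.0775), the protein kinase gene Prkca at 1.02 (adjusted p 0.151) and the caveolin gene Cav1 at -0.96 (adjusted p 0.157). Of 11 genes of glial potassium, chloride and water handling 0 passed, with a median of -0.55 and 9 negative values. The sodium pump subunit genes Atp1b1 and Atp1b2 were at 1.34 and -0.80 and the chloride cotransporter gene Slc12a2 at -0.69 (log2 fold changes, adjusted p 0.111, 0.256 and 0.273 by edgeR).

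Of 14 tested purinergic receptor and ectonucleotidase genes, which receive and clear the ATP that such channels release, 1 passed, beside 3.29% of all genes. Alpl, a phosphatase that also degrades extracellular nucleotides, fell to 6.75, 8.84 and 5.30 CPM in mutants 1, 2 and 3, against 17.7, 19.0 and 21.0 CPM in controls 1, 2 and 3 (log2 fold change -1.47, SE 0.29, edgeR adjusted p 0.0341). Its log2 value stayed between -1.67 and -1.30 with 1 library left out. The edgeR adjusted p was 0.00167 without mutant library 2, but 0.0949 to 0.176 without any other 1 library. The summed endothelial, mural and meningeal fibroblast markers were also lower in every mutant library than in any control. Their part in the Alpl level was not tested. Entpd3, a nucleotide-hydrolysing enzyme gene, was at 1.70 (adjusted p 0.0806), Nt5e, which makes adenosine from AMP, at -0.59 (adjusted p 0.245) and Entpd1 at -0.58 (adjusted p 0.277). The list median was -0.50, with 11 of 14 values negative. Without mutant library 2 the lists passed more often, beside 27.0% of all genes. Then 1 higher and 4 lower of 14 purinergic genes passed, 1 higher and 8 lower of 11 ion and water handling genes, 2 higher and 4 lower of 11 scaffold partners, and 3 higher and 2 lower of 6 other connexin and pannexin genes tested.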

How the data were processed

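Per the file headers, the authors counted read pairs over exons with featureCounts 1.4.6-p4, without regard to strand, on the UCSC mm10 gene annotation. TopHat and mm10 come from the submitters' processing notes. The deposited values are raw, unnormalized counts for each gene, in 1 table a library. RNA had been amplified before library making, per the labels' protocols, so counts are not independent molecules.

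Exons of the 9 members overlap those of 0 other genes in the tables. The test was edgeR 4.0.16 in R 4.3.3 (glmQLFit and glmQLFTest, TMM, filterByExpr with a minimum count of 10, no covariate) on all genes, 3 mutant against 3 control libraries, with Benjamini-Hochberg adjusted p under 0.05 as threshold. The SE is the log2 fold change divided by the square root of F. RPKM is CPM per kilobase of the deposited exon length. The 15 ratios of a member to a cell type list were tested by exact permutation of the library labels, two-sided. Library pairs all differed by more than sampling noise (chi-square per degree of freedom at least 45.6 over 15 pairs). Replicate numbers follow deposit order and pair nothing.

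Alternatives were other scalings and filters, robust dispersion, removal of Rn45s, Xist as a covariate, DESeq2 1.42.0, limma-voom 3.58.1, leaving out each library, and mutant library 2 alone. The members and lists were chosen with earlier results of these data known. Named genes are the 9 members, up to 4 per list of other genes by smallest p (after any that passed), and the 3 genes of highest r for each member with a mean of at least 10 CPM, gene models left out (log2 CPM with a prior count of 2). A few genes that this rule names are not reported here.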

Additional observations from a re-analysis of the deposited data

How the results depend on the processing

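With all 6 libraries 0 members and 537 genes passed. The count of members was 1, Gjb6, with DESeq2 size factors in edgeR, upper quartile scaling, total counts, no filter, the filter of at least 1 CPM in 3 libraries, and limma-voom, and 4 with DESeq2. Leaving out 1 library gave 0 to 5 members, 5 only without mutant library 2. The count of genes was 870 with no filter, 1657 with DESeq2, 222 for mutant library 2 alone, and 51 to 4551 with 1 library left out. An edgeR model with Xist as a term gave 0 genes, and 1 member had an unadjusted p under 0.05 (adjusted p of Gjb6 0.467). Of 152 values for members and 221 for 13 other named connexin, scaffold, ion handling and purinergic genes, over 17 alternatives, those that turned sign were for mutant library 2 alone Gjb1 (0.057), Gjc3 (0.19) and Gjc1 (0.47), as well as the non-members Gja6 (-0.29) and Gjd2 (-1.61), without mutant library 1 Gjc1 (0.058) and Gja5 (-0.46), and with the Xist term Gja5 (-0.037). With 1 library left out, Gjc1 ran from -0.83 to 0.058 and Gja5 from -0.46 to 0.88. Gja1, Gja4, Gjb2, Gjb6 and Panx1 kept their sign in every alternative run. Of the ratios with 1 list gene left out, a choice made after seeing the data, 1 moved by more than the spread between libraries. It was that of Gjb6 to the astrocyte list without Slc1a2 (-1.03). Leaving out 1 of 3 libraries cannot shift a mean ratio by that much. Those values, the rest of the 95 computed, therefore do not test stability. No scaling moved the median of all genes by over 0.1. Depth limits Gja5 and Gja4, with 3 to 33 and 14 to 104 counts per library. No paired analysis was possible because the labels give no shared replicate numbers.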

Other observations

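Connexin genes known from other tissues were near the counting limit, and those named here fall outside the naming rule. Gjb5 had 0 counts over the mutants and 31 over the controls, at least 7.09-fold lower when 3 counts, the limit that a sum of 0 allows, stand in for the mutants (counting error only). Gja3, a lens connexin gene, had 9 counts over the mutants and 6 over the controls, and Panx3 had 2 over the mutants and 16 over the controls. Gje1 had 98 counts over the mutants and 153 over the controls, with overlap (log2 fold change -0.035, edgeR adjusted p 0.984). Markers of Schwann cells, which also use Gjb1 and Gjc3, summed to 21.3, 7.71 and 21.4 CPM in mutants 1, 2 and 3, against 4.26 to 7.92 CPM in controls. Egr2, which is also an immediate early gene, led that sum with 14.5 CPM in mutants and 1.93 CPM in controls.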
